A study of Homo sapiens with 24 samples.

Results

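Interferon-stimulated genes were followed across 2 human biliary tract cancer cell lines, their response to the kinase inhibitor sorafenib, and the addition of IACS-010759, an inhibitor of complex I of the mitochondrial respiratory chain. The genes are a list of 46 named members, matched by symbol to the Ensembl IDs of both deposited count tables, out of 78724 gene IDs in each table. All 46 were found. The rule itself uses no measured value. The list was drawn up with earlier results of these data known, so the choice of genes is not independent of them.

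The 24 libraries form 8 groups of 3. HuCCT1, a line from an intrahepatic cholangiocarcinoma, was grown in RPMI-1640, and OCUG-1, a line from a gallbladder cancer, in DMEM, both with serum. Each line was kept for 72 h in 1 of 4 arms: vehicle, which was DMSO at 0.1% or less, sorafenib at 1.25 µM, sorafenib at 10 µM, or sorafenib at 1.25 µM together with 1 µM IACS-010759, called the combination here. The labels call the 3 samples of a group independent biological replicates. There was no arm with IACS-010759 alone, and what its addition did was seen only in cells that also had 1.25 µM sorafenib. Each tumour type is represented by a single line, and line and medium differ together, so a difference between the lines cannot be told apart from a difference between the media.

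Interferons are secreted proteins that cells release when they sense foreign or misplaced nucleic acid. Type I and type III interferons bind receptors coupled to the kinases JAK1 and TYK2, which lead to the assembly of the ISGF3 complex, of which STAT2 and IRF9 are parts. It binds a DNA element called the interferon-stimulated response element (ISRE) and turns on genes that sense viral RNA, block translation, trap virions or feed back on the pathway. Many tumour cell lines transcribe a part of these genes in culture without added interferon.

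The libraries held 14388855 to 30693736 counted reads. Summed levels of a fixed list of 6 biliary epithelial markers were 7450 to 13225 CPM (read counts scaled by library size and TMM factors) in the HuCCT1 libraries. In OCUG-1 they were 4483 to 7354 CPM in the vehicle and 1.25 µM libraries and 1038 to 1473 CPM in the 10 µM and combination libraries, and no marker was at 0. KRT7 and CDH1, which mark bile duct and other epithelia, were low in OCUG-1, with group means of at most 13.7 and 3.20 CPM. Immune markers summed to at most 6.50 CPM and endothelial markers to at most 10.2 CPM in any library, and CLEC4C and LILRA4, which mark the plasmacytoid dendritic cells known for interferon production, had no counts. Fibroblast markers were not near 0. They summed to 40.2 to 64.2 CPM in HuCCT1 and 48.7 to 196 CPM in OCUG-1, mostly from COL1A1 and LUM.

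Promoter sequence shows what many of these genes share apart from their names. RefSeq promoters on GRCh38.p14 were matched for 39 of the 46 genes, and the 250 bases before each start were searched on both strands for the ISRE core GAAANNGAAA, read as TTTCNNTTTC on the other strand. It was present in 24 of 39 promoters (61.5%), against 1061 of 35116 promoters of all genes in the table (3.02%). The gamma-activated site (GAS) core TTCNNNGAA, named for the response to interferon gamma, was in 9 of 39 (23.1%) against 2306 of 35116 (6.57%). Matches of the 2 cores may overlap each other and themselves. A match is a description of the letters and not a measured binding site. ISG15 and IFI6 had the highest CPM per kilobase of all annotated exons in untreated HuCCT1. Their whole 250 bases are shown, 5′ to 3′ on the strand of the gene, with every ISRE core match in capitals.
ISG15, chr1:1013247-1013496, strand +: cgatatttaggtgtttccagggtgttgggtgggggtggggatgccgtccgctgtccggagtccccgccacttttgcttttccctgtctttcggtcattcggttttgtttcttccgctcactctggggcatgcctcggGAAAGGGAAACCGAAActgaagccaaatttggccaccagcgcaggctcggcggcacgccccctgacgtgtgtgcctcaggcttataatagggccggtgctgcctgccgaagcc
IFI6, chr1:27672193-27672442, strand -: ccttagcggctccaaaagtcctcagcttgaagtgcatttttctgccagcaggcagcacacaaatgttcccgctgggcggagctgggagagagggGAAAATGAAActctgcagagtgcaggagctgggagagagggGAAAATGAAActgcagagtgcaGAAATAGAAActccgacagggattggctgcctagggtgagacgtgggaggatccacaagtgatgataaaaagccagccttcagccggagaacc
In ISG15 the matches began 113 and 107 bases before the start and overlapped each other. IFI6 had 3 matches, at 156, 115 and 93 bases.

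RSAD2 had the largest fall of the 46 genes in HuCCT1 and the largest rise in OCUG-1 when IACS-010759 was added. It had no ISRE core match in this window. A single start of each gene was searched. The RSAD2 window lies within the annotated span of CMPK2 (chr2:6840570-6866635), and any other start of RSAD2 was not searched. After the RSAD2 sequence had been seen, the same core with a gap of 1 base was searched as well, GAAANGAAA or TTTCNTTTC on the other strand. It occurred 4 times in this RSAD2 window, in 13 of 39 promoters (33.3%) and in 945 of 35116 promoters of all genes (2.69%). Of the 15 genes without the ISRE core, 6 held it (MX1, OAS1, RSAD2, CXCL11, IFI35 and SP110). Its matches in RSAD2 are in capitals here.
RSAD2, chr2:6865635-6865884, strand +: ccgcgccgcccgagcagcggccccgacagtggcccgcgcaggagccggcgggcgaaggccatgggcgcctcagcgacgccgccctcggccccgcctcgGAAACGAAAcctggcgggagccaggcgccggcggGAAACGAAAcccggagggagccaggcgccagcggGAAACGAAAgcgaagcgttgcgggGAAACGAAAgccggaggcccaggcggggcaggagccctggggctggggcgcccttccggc

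The ISRE core match nearest the start is shown with up to 10 bases on each side for 9 further genes whose values in every library are given below, so that genes that moved alike and genes that did not can be read side by side. Capitals mark every base that belongs to an ISRE core match, also where the match runs past the printed bases.
IFIT1, chr10:89392510-89392539, strand +: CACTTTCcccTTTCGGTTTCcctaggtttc
OAS3, chr12:112938452-112938473, strand +: agccgggcggGAAAACGAAAcc
BST2, chr19:17405735-17405764, strand -: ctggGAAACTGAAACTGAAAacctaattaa
SAMD9, chr7:93118096-93118125, strand -: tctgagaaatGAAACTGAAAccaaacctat
PARP14, chr3:122680800-122680829, strand +: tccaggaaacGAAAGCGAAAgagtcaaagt
CXCL10, chr4:76023699-76023728, strand -: tcatgttttgGAAAGTGAAAcctaattcac
LGALS3BP, chr17:78979962-78979991, strand -: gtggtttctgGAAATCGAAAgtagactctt
IFI27, chr14:94110631-94110660, strand +: CGGTTTCctgGAAAATGAAAcctatctcat
IFI44L, chr1:78620365-78620394, strand +: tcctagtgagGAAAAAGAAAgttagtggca
The core stood on the forward strand in most of these and on the reverse strand in IFIT1. IFI27 carried a match on each strand. CXCL10 had its match farthest from the start, at 221 bases, and OAS3 had a match 12 bases before it.

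**Figure D1:**
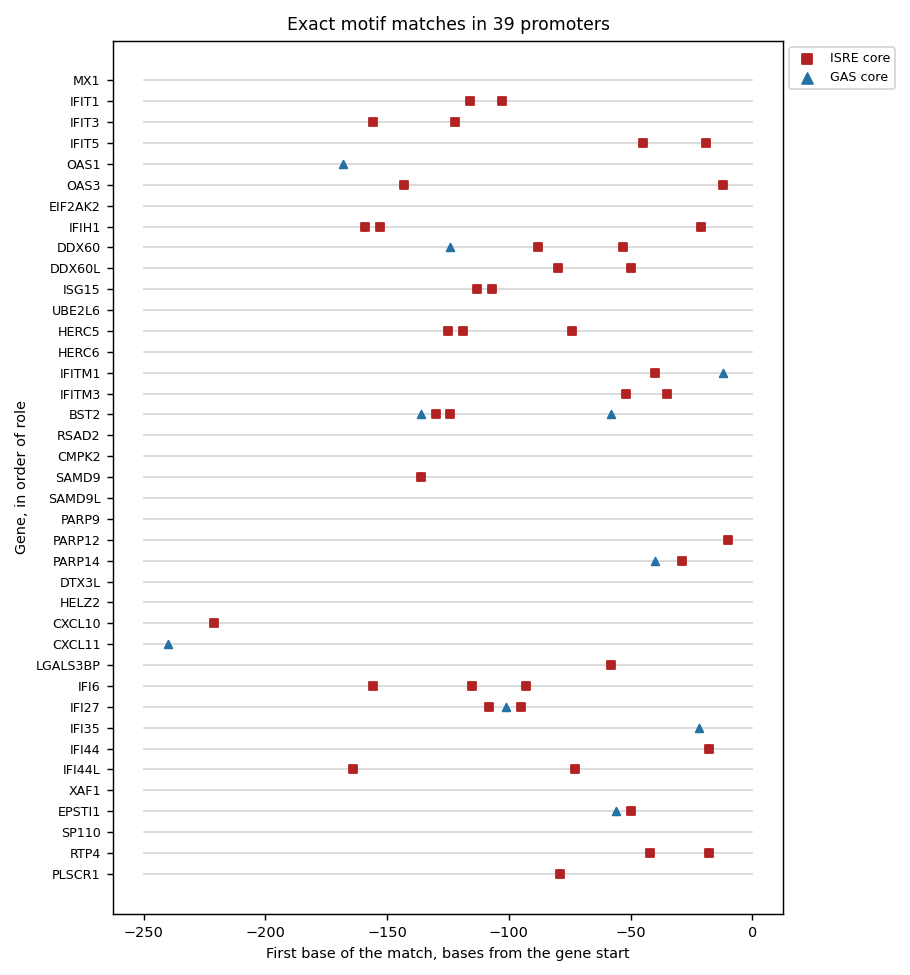
Position of every exact match of the ISRE core (red squares) and the GAS core (blue triangles) in the 250 bases before the start of the 39 genes with a promoter in the table; the x axis is the distance in bases from the gene start. The ISRE core was found in 24 genes and the GAS core in 9, and MX1, RSAD2 and CMPK2 are among the genes that show neither. A single start of each gene was searched, and the windows of RSAD2 and CMPK2 each lie within the annotated span of the other gene.

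Levels in untreated cells differed by line for nearly every gene (the heatmap of levels by library shows all 46). Levels between genes are compared as FPKM, which is CPM divided by exonic length in kilobases. The length joins all annotated exons of a gene and not those of 1 transcript, so the order of genes depends on it. By CPM alone IFI27 was the highest in HuCCT1 vehicle cells, at 1494 CPM. Its exonic length was 4147 bases, against 941 for ISG15 and 865 for IFI6. In HuCCT1 vehicle cells the highest were ISG15 at 565 ± 131 FPKM (SD, n = 3), IFI6 at 555 ± 86.8, LGALS3BP at 370.1 ± 7.62 and IFI27 at 360.2 ± 76.9, and the lowest was HERC5 at 0.147 ± 0.0267. In OCUG-1 vehicle cells LGALS3BP led with 270.2 ± 2.88 FPKM, followed by IFI27 with 63.7 ± 1.03 and ISG15 with 57.7 ± 5.75. LGALS3BP and IFI27 were therefore near the top in both lines, while IFI6 stood at 15.7 ± 1.72 in OCUG-1. Of the 46 genes, 41 had a mean of at least 10 CPM in HuCCT1 vehicle cells and 27 in OCUG-1 vehicle cells. Summed over the 46 genes, the level was 12003 ± 1230 CPM in HuCCT1 vehicle libraries and 2056 ± 28.3 CPM in OCUG-1 vehicle libraries.

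**Figure D2:**
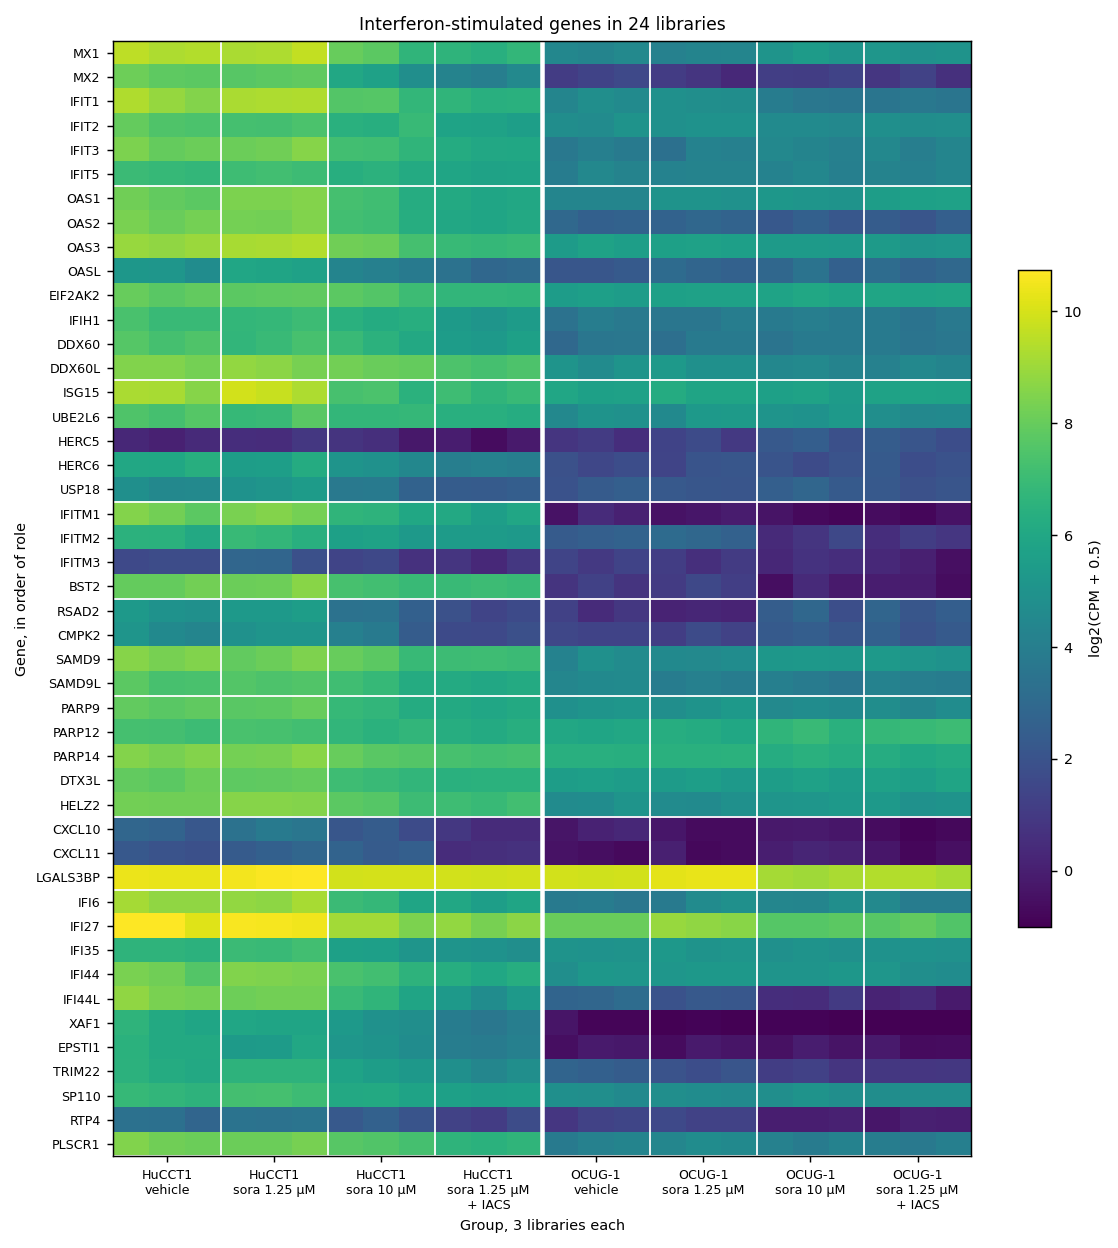
Levels of the 46 genes (rows, in order of role) in the 24 libraries (columns, 3 per group), as log2 of CPM plus 0.5; the thick white line separates the lines. The HuCCT1 vehicle and 1.25 µM columns are bright, the 10 µM and combination columns darker, and the OCUG-1 columns lower for most genes; LGALS3BP is bright in all columns, with group means between 572 and 1596 CPM.

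In vehicle cells 44 of the 46 genes were lower in OCUG-1 than in HuCCT1 and none was higher, with a median log2 difference of -3.42, at an adjusted p under 0.05 in edgeR's quasi-likelihood test. This threshold defines a call throughout. Over all 22944 genes tested, 68.3% were called, 32.7% lower. In these bulk libraries fewer cells that express a gene and less RNA of it per cell cannot be told apart. The differences were largest for XAF1 (log2 -9.09 ± 0.32, SE), a partner of the apoptosis inhibitor XIAP, for IFITM1 (-9.04 ± 0.31), for EPSTI1 (-7.93 ± 0.28) and for BST2 (-7.55 ± 0.24). These 4 rest on few OCUG-1 reads, and a fitted value at such counts depends on the prior count. XAF1, IFITM1, EPSTI1, CXCL10 and CXCL11 had too few OCUG-1 reads for a test within that line. They entered this fit through HuCCT1, so within the 44 they could only be called lower. XAF1 had 1 to 5 counts in the OCUG-1 vehicle libraries against 1244 to 2641 in HuCCT1, and IFITM1 had 4 to 15 against 4834 to 9914. The smallest called difference was that of LGALS3BP, -0.45 ± 0.09 (edgeR adjusted p = 5.98e-05). The 2 genes without a call were HERC5, 0.82 ± 0.39 (edgeR adjusted p = 0.0658), and IFITM3, -0.53 ± 0.34 (edgeR adjusted p = 0.163), both at low levels in each line. All 44 calls were kept in every alternative run. With DESeq2, and with library size alone as the scale, HERC5 was also called, higher in OCUG-1.

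At 1.25 µM sorafenib few of the genes were called in HuCCT1. Against vehicle 6 rose (OASL, IFITM3, CXCL10, CXCL11, IFI35 and SP110) and EPSTI1 fell, 7 of 46, with a median log2 change of 0.20. Over all 19576 genes 18.5% were called, so the share called among the 46 was no higher than that of all genes. By direction 13% of the 46 were higher and 2.17% lower, against 9.98% and 8.5% of all genes. Called or not, 17 of the 46 had the 3 libraries at 1.25 µM all above the 3 vehicle libraries, and 2 had them all below. Over all 19576 genes these were 3332 and 3293. The CXCR3-binding chemokine CXCL10 rose by 1.04 ± 0.23 (log2, SE; edgeR adjusted p = 0.00626) and OASL, an OAS relative without the synthetase activity, by 0.80 ± 0.16 (edgeR adjusted p = 0.00321). SP110, a nuclear body protein, rose by 0.47 ± 0.11 and EPSTI1 changed by -0.63 ± 0.17. The calls of OASL, CXCL10 and SP110 were kept in every alternative, and those of IFITM3, CXCL11, IFI35 and EPSTI1 were each lost on leaving out some of the single libraries. The count was unstable. It was 3 without replicate 2 of the 1.25 µM arm, 4 without replicate 1 of that arm or of the vehicle arm, and 11 without its replicate 3. With the replicate 3 library of the vehicle, 1.25 µM and 10 µM arms all removed, 13 genes were called higher and 9 lower.

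At 10 µM sorafenib the genes were lower in HuCCT1. Against the same vehicle libraries, 41 of 46 fell and CXCL11 rose, with a median log2 change of -0.99, while 24.2% of all genes were called and 11.2% were lower. Of the 41, 23 fell at least 2-fold. Of all 42 calls 39 were kept in every alternative, and those of EIF2AK2, CMPK2 and CXCL11 were not. EIF2AK2 (-0.40, edgeR adjusted p = 0.0419) lost its call with library size alone and without vehicle replicate 1 or 3 or 10 µM replicate 2 or 3, among others. The largest falls were those of MX2 (-2.33 ± 0.24, log2, SE), IFI6 (-2.27 ± 0.24), IFI44L (-1.93 ± 0.24) and RSAD2 (-1.93 ± 0.20). Not called were CXCL10, IFITM3, DDX60L and HERC5. CXCL11, a chemokine of the same receptor as CXCL10, changed by 0.61 ± 0.20 (edgeR adjusted p = 0.0345), a call that ended in 8 alternatives (0.50 to 0.74 over all of them), among them without vehicle replicate 2 or 3 or 10 µM replicate 1 or 3. The replicate 3 library at 10 µM was the lowest of its arm for 40 of the 46 genes. Without it 40 genes were called, all lower, with a median of -0.80. That library also had the lowest summed biliary epithelial markers of the line, 7450 CPM, and the part of this in the result was not tested.

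With IACS-010759 added to 1.25 µM sorafenib, all 46 genes fell in HuCCT1. The median log2 change against 1.25 µM sorafenib was -1.92, 43 genes fell at least 2-fold, and for all 46 the 3 combination libraries lay below all 3 of the 1.25 µM arm. Over all genes 11.6% were called, 6.57% were lower, and 18.2% had the 3 combination libraries below the other 3. The changes ran from -3.93 ± 0.22 (log2, SE) for RSAD2 to -0.72 ± 0.09 for LGALS3BP. CMPK2, MX2, CXCL10, IFI6 and IFI44L also fell by more than 3 on the log2 scale. HERC5, with means of 1.07 CPM at 1.25 µM and 0.350 CPM in the combination, was the gene nearest the threshold (-1.57 ± 0.47, edgeR adjusted p = 0.0409), and lost its call in 7 alternatives. In the other 45 the call was kept in each alternative. With library size alone as the scale the median of all genes moved to 0.19 and that of the 46 genes was -1.73. By role, the median change ran from -1.41 for the PARP group to -2.51 for the MX and IFIT group and for the group of RSAD2, CMPK2, SAMD9 and SAMD9L. Of the 6 biliary epithelial markers KRT8 was called in the same comparison, lower by 0.60. Mitochondrially encoded transcripts took 12.5% to 21.8% of counts at 1.25 µM and 10.5% to 12.6% in the combination. The part of these in the result was not tested.

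Against vehicle, 45 of 46 genes were lower in the combination, all but HERC5, with a median of -1.90. Of all genes 20.1% were called and 10.1% were lower. Among the 4 HuCCT1 arms the combination had the lowest mean for all 46 genes, and the highest mean was at 1.25 µM for 30 genes and in vehicle for 16. How often genes outside the list show such an order was not counted. The summed level went from 13126 ± 486 CPM (SD, n = 3) at 1.25 µM to 3929 ± 248 CPM in the combination, with 5687 ± 989 CPM at 10 µM. The difference between the combination and 10 µM sorafenib was not tested. LGALS3BP kept 60.6% of its 1.25 µM mean in the combination, ISG15 kept 14.7%, MX2 8.53% and RSAD2 6.49%.

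**Figure D3:**
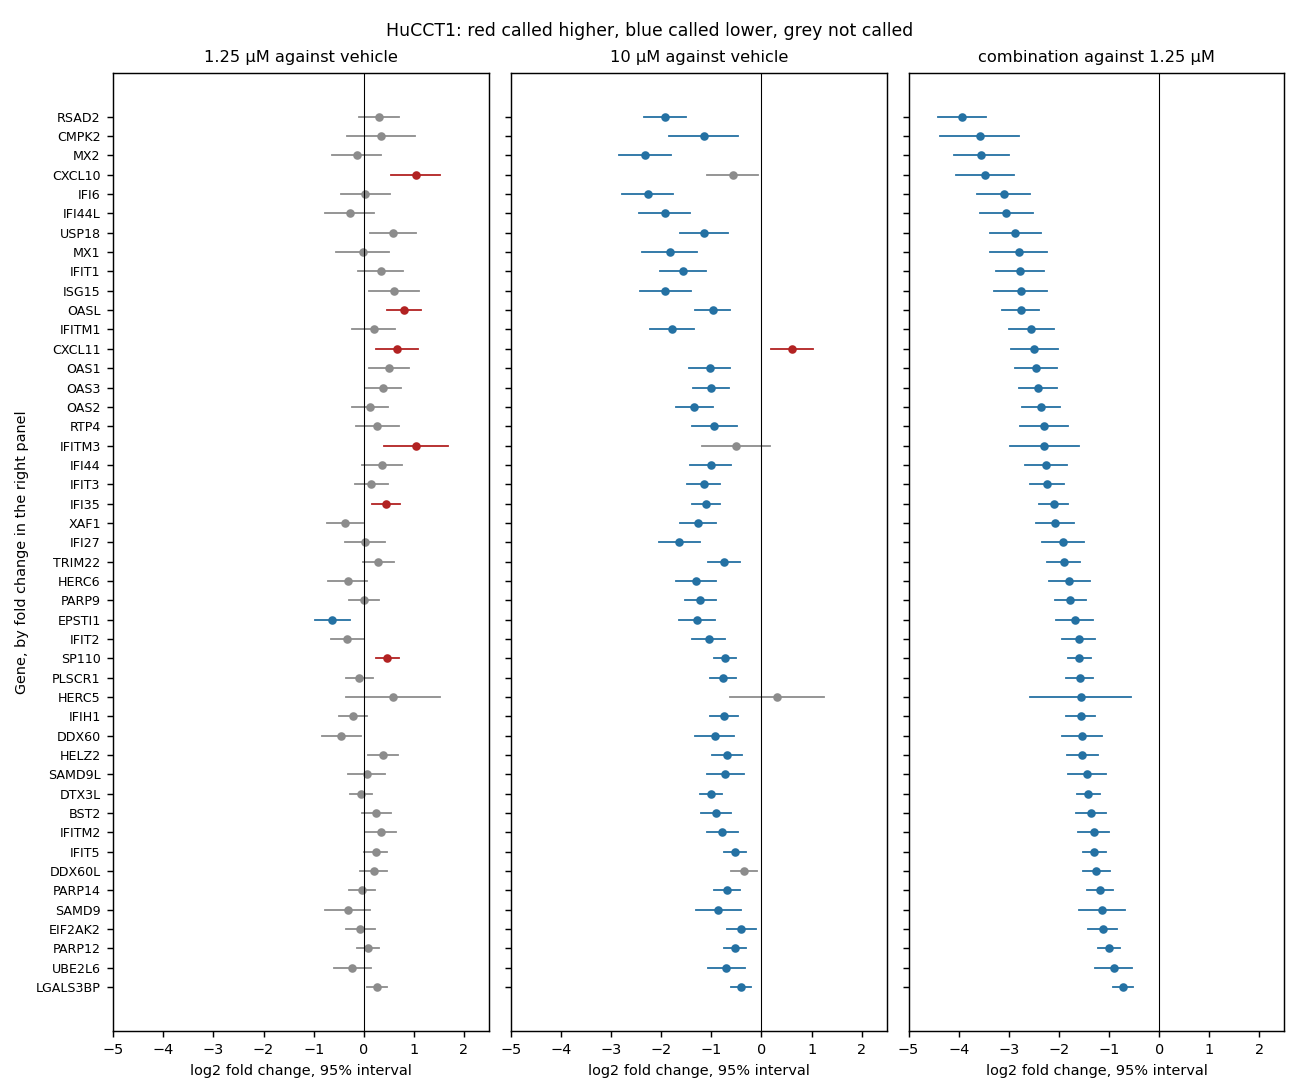
log2 fold changes (points) with 95% intervals (lines) of the 46 genes in 3 HuCCT1 comparisons, ordered by the right panel; red marks genes called higher, blue called lower and grey not called. The left panel scatters around 0, the middle panel lies mostly below it, and the right panel is below 0 for every gene, from -3.93 for RSAD2 to -0.72 for LGALS3BP.

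In OCUG-1 the genes did not move as a block. IFITM1, CXCL10, CXCL11, XAF1 and EPSTI1 had too few counts for the test there, which left 41 genes. At 1.25 µM sorafenib, OAS1, LGALS3BP and IFI27 rose and SAMD9L, IFI44L and TRIM22 fell, 6 of 41, against 10.5% of all 20511 genes. That count was 2 without the replicate 3 library of the vehicle arm or of the 1.25 µM arm, and 3 without replicate 2 of the 1.25 µM arm. OAS1 and IFI27 were the calls kept in every alternative. At 10 µM 12 rose and 12 fell, with a median of 0.09, in a comparison that called 63.1% of all genes. The combination against 1.25 µM sorafenib had 11 higher and 13 lower, with a median of -0.05, where 58.1% of all genes were called. Against vehicle the combination had 12 higher and 12 lower, where 59.5% of all genes were called. The 58.5% of tested genes called in each of the last 3 comparisons is close to the share over all genes. At 10 µM against vehicle 20 of the 24 calls were kept in every alternative, and those of IFIT3, IFITM3, PARP9 and IFI27 were lost on leaving out 10 µM replicate 1, among other libraries. For the combination against vehicle 18 of 24 were kept, and those of IFIT3, OAS3, SAMD9L, PARP9, DTX3L and HELZ2 were each lost on leaving out at least 1 combination library and at least 1 vehicle library.

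The genes higher in the OCUG-1 combination than at 1.25 µM were MX1, IFIT3, OAS1, EIF2AK2, HERC5, RSAD2, CMPK2, SAMD9, PARP12, DTX3L and HELZ2. Those lower were IFIT1, OAS3, DDX60L, IFITM2, IFITM3, BST2, PARP9, LGALS3BP, IFI27, IFI44L, TRIM22, RTP4 and PLSCR1. RSAD2 had the largest rise, 3.09 ± 0.36 (log2, SE), and IFI44L the largest fall, -2.54 ± 0.29. Both rest on few reads in 1 of the 2 arms. RSAD2 had 9 to 15 counts per library at 1.25 µM, and IFI44L had 8 to 19 in the combination. Of these 24 calls 18 were kept in every alternative. The calls of IFIT3 (log2 change 0.26 to 0.65 over the alternatives), EIF2AK2 (0.17 to 0.44), HELZ2 (0.32 to 0.66), DTX3L (0.26 to 0.53), OAS3 (-0.48 to -0.19) and PARP9 (-0.49 to -0.20) were lost when 1 of the combination libraries was left out, and some in other alternatives. With library size alone as the scale the split was 12 higher and 11 lower, and the median of all genes moved to 0.21. Other values moved with the same arms of OCUG-1. Of the 6 biliary epithelial markers, KRT8, KRT18, KRT19 and CDH1 were lower both at 10 µM against vehicle and in the combination against 1.25 µM, EPCAM was lower in the latter, and KRT7 was higher at 10 µM. Mitochondrially encoded transcripts took 9.39% to 13.6% of counts in the vehicle and 1.25 µM libraries and 4.71% to 6.48% in the 10 µM and combination libraries. The part of these in the results was not tested.

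**Figure D4:**
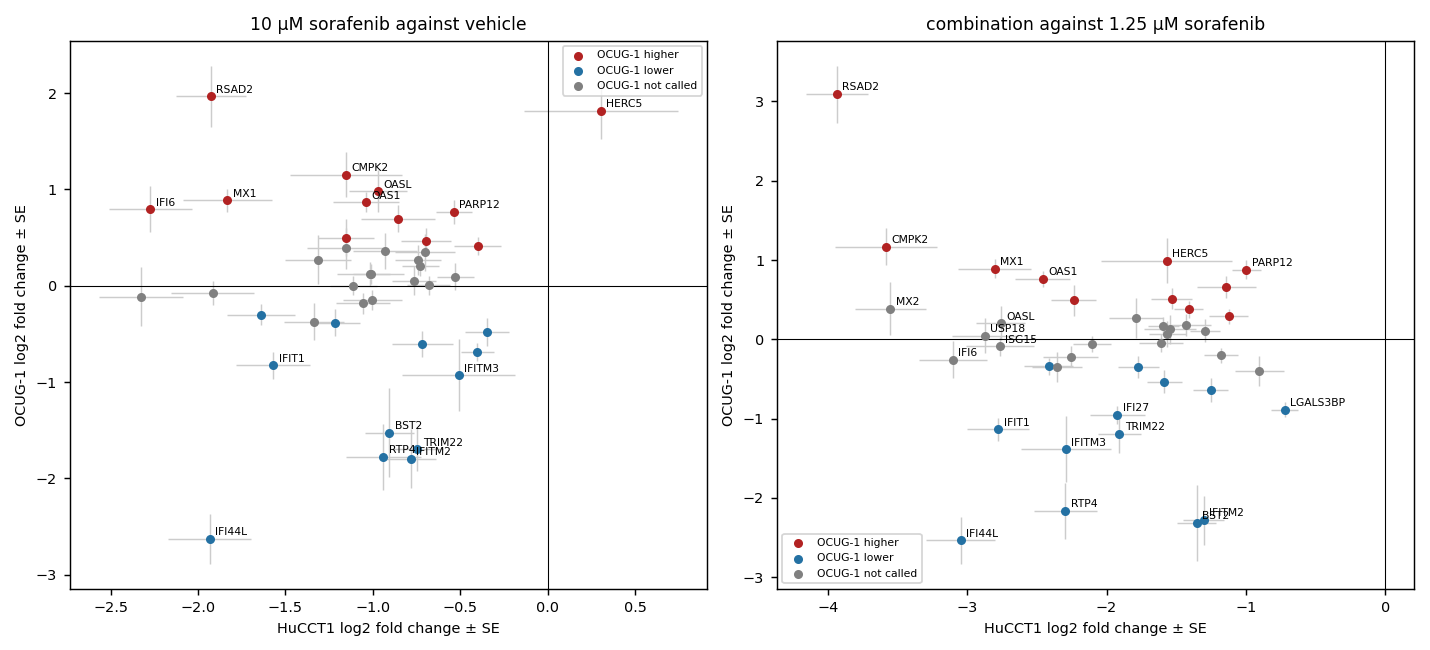
log2 fold change with SE in OCUG-1 (y axis) against HuCCT1 (x axis) for the 41 genes tested in both, for 10 µM sorafenib against vehicle (left) and the combination against 1.25 µM (right); colours give the OCUG-1 call. In the right panel every gene is below 0 on the x axis, and on the y axis the genes spread from -2.54 for IFI44L to 3.09 for RSAD2.

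Across the 41 genes the log2 changes of the lines for the combination against 1.25 µM had a Pearson r of -0.223 and a Spearman rho of -0.0807. For 10 µM against vehicle they were 0.0314 and -0.0449. These describe genes measured in the same libraries, which are not independent replicates. The difference between the lines was tested directly as an interaction in a fit of all 24 libraries. For the combination against 1.25 µM, the OCUG-1 change was above the HuCCT1 change for 35 of 46 genes and below it for IFITM2 and BST2, where 38.8% of all 22944 genes were called and 18.6% were higher. CXCL10 and CXCL11 are among the 35, but had too few reads in OCUG-1 for a test within that line and entered this fit through HuCCT1, so no usable OCUG-1 change stands behind them. For 10 µM against vehicle 32 genes were higher in this sense and LGALS3BP, IFITM2 and TRIM22 lower, where 43.8% of all genes were called and 20.7% were higher. For 1.25 µM against vehicle IFI27 was higher and CXCL10, TRIM22 and SP110 were lower, 4 of 46, where 9.65% of all genes were called. The same limit holds for CXCL10 here, which had 2 to 5 counts in the OCUG-1 libraries at 1.25 µM and 5 to 13 in vehicle. That last count was 2 without replicate 1 or 2 of the HuCCT1 1.25 µM arm, replicate 1 of the OCUG-1 vehicle arm or replicate 2 of the OCUG-1 1.25 µM arm, and 8 without replicate 3 of the HuCCT1 1.25 µM arm.

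**Figure D5:**
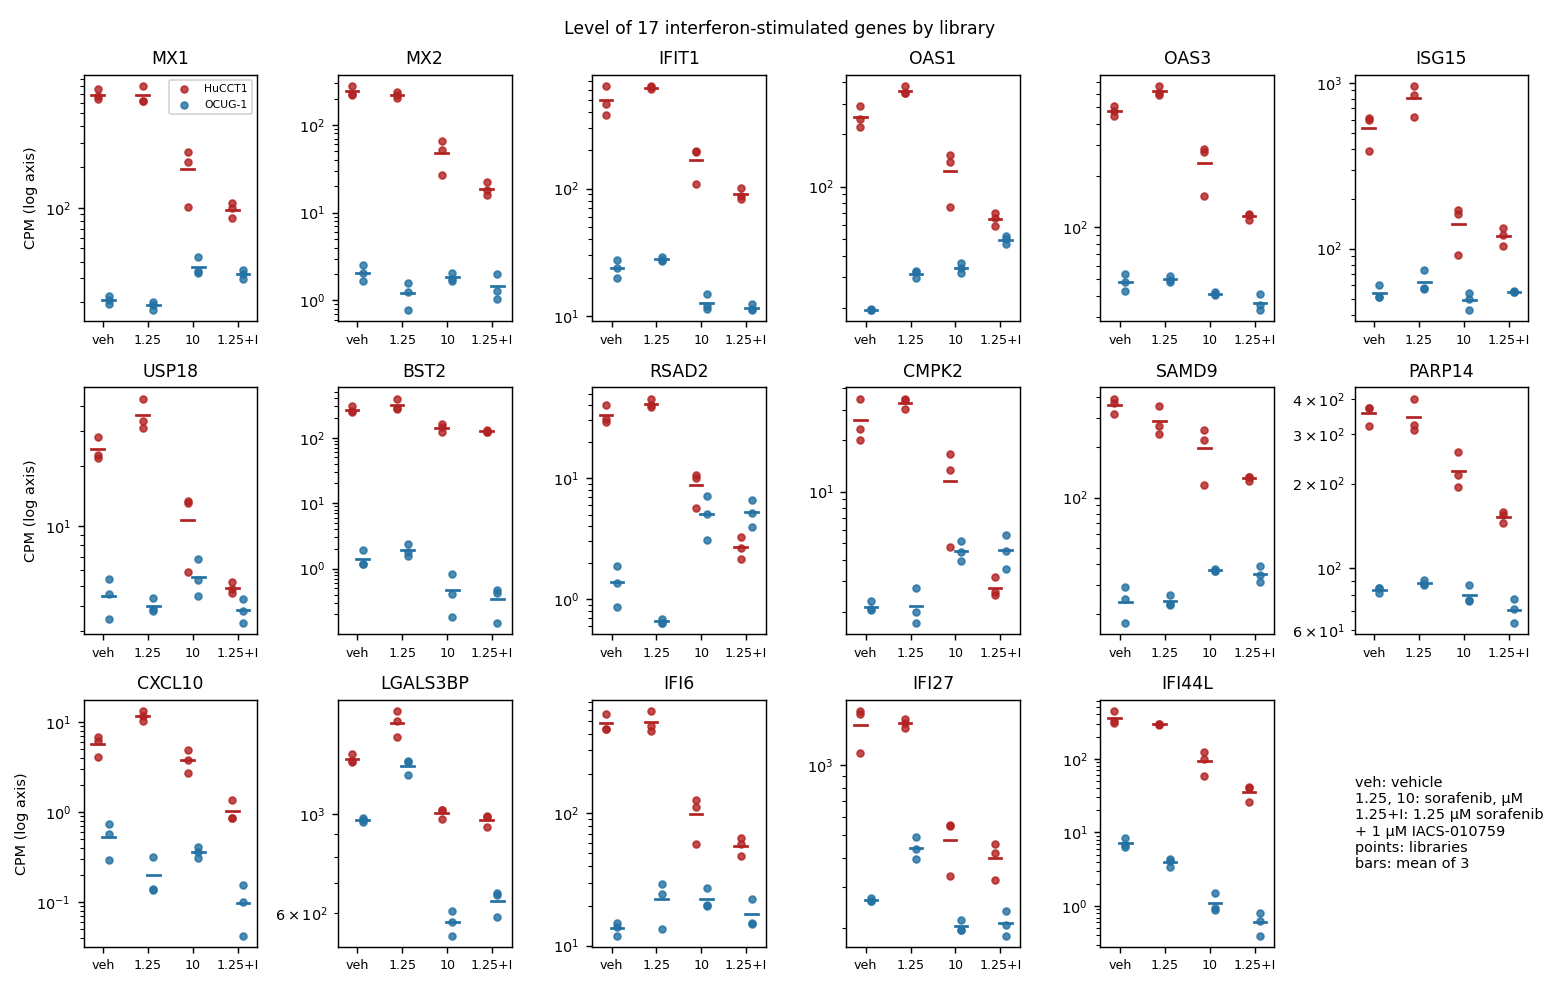
CPM on a log axis in every library (points) and the mean of 3 (bars) for 17 genes in the 4 arms, HuCCT1 in red and OCUG-1 in blue. HuCCT1 points fall from the 1.25 µM arm to the combination in each panel, and in the RSAD2 panel the 3 OCUG-1 combination libraries, at 3.93 to 6.62 CPM, lie above the 3 HuCCT1 combination libraries, at 2.14 to 3.28 CPM.

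MX1 and MX2 encode dynamin-like GTPases that block virus replication, and lie next to each other on chromosome 21 (chr21:41361943-41409390 for MX2 and chr21:41420304-41459214 for MX1, GRCh38). MX1 was measured in HuCCT1 at 753, 635 and 672 CPM in the 3 vehicle libraries, 612, 619.7 and 799.7 at 1.25 µM, 257, 219.9 and 102 at 10 µM and 99.8, 83.6 and 108 in the combination. Vehicle and 1.25 µM libraries overlapped, and all 6 libraries of the other arms lay below them. The log2 change was -1.83 ± 0.25 (SE; edgeR adjusted p = 0.000188) at 10 µM and -2.80 ± 0.26 (edgeR adjusted p = 2.07e-05) for the combination against 1.25 µM. In OCUG-1 the MX1 values were 20.9, 19.3 and 22.3 CPM in the 3 vehicle libraries, 17.6, 19.1 and 20.1 at 1.25 µM, 32.8, 43.1 and 34.0 at 10 µM and 34.9, 29.9 and 32.3 in the combination. Here the 10 µM and combination libraries were the high ones, with no overlap with vehicle or 1.25 µM, and the same 2 comparisons gave 0.89 ± 0.12 and 0.89 ± 0.12. MX2 in HuCCT1 stood at 280.5, 227 and 219.9 CPM in the 3 vehicle libraries, 204, 217 and 237 at 1.25 µM, 65.7, 51.9 and 27.1 at 10 µM and 18.2, 15.7 and 22.2 in the combination. Each combination library was below each 10 µM library, and the change against 1.25 µM was -3.55 ± 0.26 (edgeR adjusted p = 1.98e-06). OCUG-1 held little MX2, 1.65, 2.07 and 2.51 CPM in the 3 vehicle libraries, 1.60, 1.24 and 0.779 at 1.25 µM, 1.75, 1.68 and 2.07 at 10 µM and 1.29, 2.01 and 1.05 in the combination. The 1.25 µM libraries lay just below those of vehicle, the other arms overlapped vehicle, and no OCUG-1 comparison called MX2, although its genomic neighbour MX1 rose; the difference between neighbours was not tested.

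IFIT1 encodes a protein that binds the ends of foreign RNA and blocks its translation. Its HuCCT1 libraries held 644, 463 and 376 CPM in the 3 vehicle libraries, 608, 624 and 636 at 1.25 µM, 194, 198 and 108 at 10 µM and 101, 83.6 and 87.5 in the combination. The vehicle libraries spread widely, the 1.25 µM libraries lay close together, and the combination libraries were the lowest, with changes of -1.57 ± 0.21 (log2, SE) at 10 µM and -2.78 ± 0.22 (edgeR adjusted p = 2.36e-06) for the combination against 1.25 µM. OCUG-1 libraries held 19.7, 27.5 and 23.8 CPM in the 3 vehicle libraries, 28.8, 27.7 and 26.8 at 1.25 µM, 14.8, 11.9 and 11.4 at 10 µM and 11.4, 12.3 and 11.2 in the combination. IFIT1 thus fell in OCUG-1 too, by 0.83 ± 0.14 at 10 µM and by 1.14 ± 0.14 in the combination, less than in HuCCT1 by the interaction test (1.52 ± 0.27, edgeR adjusted p = 5.74e-05). Its relatives on chromosome 10 fell in the HuCCT1 combination by log2 1.61 (IFIT2), 2.24 (IFIT3) and 1.29 (IFIT5). In OCUG-1 IFIT3 rose from a mean of 14.7 CPM at 1.25 µM to 19.2 CPM in the combination, and IFIT2 and IFIT5 were not called in any OCUG-1 arm.

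OAS1, OAS2 and OAS3 sense double-stranded RNA and make short oligoadenylates that activate the nuclease RNase L. OAS1 (chr12:112906777-112933222) in HuCCT1 was at 291, 244 and 219 CPM in the 3 vehicle libraries, 346, 344 and 379.9 at 1.25 µM, 152, 139 and 76.3 at 10 µM and 70.5, 59.0 and 65.5 in the combination. All 1.25 µM libraries were above all vehicle libraries, yet this difference was not called (0.51 ± 0.19, log2, SE; edgeR adjusted p = 0.0707). The combination libraries were below every other library, and the change against 1.25 µM was -2.46 ± 0.20 (edgeR adjusted p = 2.01e-06). In OCUG-1 OAS1 ran the other way, at 19.6, 19.5 and 19.7 CPM in the 3 vehicle libraries, 32.3, 32.6 and 29.9 at 1.25 µM, 36.2, 33.9 and 31.9 at 10 µM and 46.4, 49.8 and 52.0 in the combination. Vehicle was lowest and the combination highest with no overlap, and the gene rose at 1.25 µM (0.66 ± 0.10), at 10 µM (0.87 ± 0.10) and in the combination over 1.25 µM (0.76 ± 0.10, edgeR adjusted p = 3.65e-06).

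OAS3, the largest of the OAS enzymes, had 478, 443 and 507 CPM in the 3 vehicle libraries, 589, 604 and 666 at 1.25 µM, 287, 273 and 153 at 10 µM and 119.5, 111 and 118 in the combination in HuCCT1. It fell by 1.00 ± 0.17 (log2, SE) at 10 µM and by 2.42 ± 0.18 (edgeR adjusted p = 5.88e-07) in the combination against 1.25 µM, and its combination libraries did not overlap those of any arm. The OCUG-1 libraries had 42.6, 53.9 and 47.9 CPM in the 3 vehicle libraries, 49.6, 52.2 and 48.3 at 1.25 µM, 41.1, 42.2 and 40.7 at 10 µM and 41.1, 33.2 and 35.4 in the combination. The 10 µM and combination libraries overlapped each other and lay below all those of vehicle and 1.25 µM, with a fall of 0.34 ± 0.11 in the combination (edgeR adjusted p = 0.0115). OAS2 and OASL fell in the HuCCT1 combination by 2.36 and 2.76. In OCUG-1 OAS2 was not called in any arm and OASL rose at 10 µM by 0.98. Of the sensors and effectors of double-stranded RNA, EIF2AK2, the kinase PKR that halts translation, fell in the HuCCT1 combination from a mean of 226 to 104 CPM (log2 -1.13). In OCUG-1 its means were 51.3 and 57.9 CPM, and the log2 change was 0.29 in that line's own fit, which is scaled apart from the CPM. This small rise did not keep its call in every alternative. IFIH1, the sensor MDA5, and the helicases DDX60 and DDX60L fell in HuCCT1 by 1.56, 1.54 and 1.25. In OCUG-1 IFIH1 and DDX60 were not called and DDX60L fell by 0.64.

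ISG15 is a ubiquitin-like protein that is joined to other proteins by UBE2L6 and HERC5 and removed by USP18, which also dampens receptor signalling. ISG15 in HuCCT1 was at 612, 594 and 390.1 CPM in the 3 vehicle libraries, 960.0, 845 and 622 at 1.25 µM, 162, 171 and 91.0 at 10 µM and 133, 103 and 120.2 in the combination. The 10 µM and combination libraries lay below all vehicle and 1.25 µM libraries, with changes of -1.92 ± 0.24 (log2, SE; edgeR adjusted p = 7.07e-05) and -2.77 ± 0.25 (edgeR adjusted p = 9.22e-06). The OCUG-1 values of ISG15 were 60.5, 51.1 and 51.2 CPM in the 3 vehicle libraries, 74.6, 57.4 and 57.7 at 1.25 µM, 50.1, 54.3 and 42.8 at 10 µM and 54.5, 55.6 and 54.5 in the combination. Each arm overlapped the vehicle libraries and none was called, and the interaction for the combination was 2.56 ± 0.28 (edgeR adjusted p = 1.69e-07). USP18 in HuCCT1 was at 27.8, 22.0 and 22.7 CPM in the 3 vehicle libraries, 30.9, 33.7 and 43.4 at 1.25 µM, 13.0, 13.4 and 5.91 at 10 µM and 4.87, 4.60 and 5.26 in the combination. The combination libraries were lowest, though the replicate 3 library at 10 µM was near them, and the change against 1.25 µM was -2.87 ± 0.24 (edgeR adjusted p = 2.36e-06). In OCUG-1 USP18 was at 3.42, 4.60 and 5.41 CPM in the 3 vehicle libraries, 4.34, 3.85 and 3.76 at 1.25 µM, 5.37, 6.86 and 4.45 at 10 µM and 4.34, 3.29 and 3.78 in the combination. The 10 µM libraries lay above those of 1.25 µM and of the combination, each arm overlapped vehicle, and no comparison run called it. In the HuCCT1 combination UBE2L6 fell by 0.91 and HERC6, a relative of HERC5, by 1.79, and neither was called in OCUG-1. HERC5, the human ISG15 ligase, had means of only 0.700 to 1.07 CPM in HuCCT1 vehicle and 1.25 µM cells, and rose in OCUG-1 from 1.25 CPM in vehicle to 4.20 CPM at 10 µM (1.82 ± 0.30).

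BST2, or tetherin, holds budding virions at the cell surface, and showed a large contrast of the lines. HuCCT1 libraries held 252, 249 and 302 CPM in the 3 vehicle libraries, 277, 281 and 396 at 1.25 µM, 159.8, 147 and 122 at 10 µM and 122, 129 and 122 in the combination. The 10 µM and combination libraries lay below those of vehicle and 1.25 µM and overlapped each other at the low end, with a fall of 0.91 ± 0.14 (log2, SE) at 10 µM and 1.35 ± 0.14 in the combination against 1.25 µM (edgeR adjusted p = 1.38e-05). OCUG-1 held 1.18, 1.90 and 1.20 CPM in the 3 vehicle libraries, 1.53, 2.38 and 1.77 at 1.25 µM, 0.183, 0.817 and 0.414 at 10 µM and 0.465, 0.427 and 0.149 in the combination. The level was near the detection limit there and fell in the combination by 2.32 ± 0.48 (edgeR adjusted p = 0.000473), from a mean of 1.89 to 0.347 CPM. IFITM1, IFITM2 and IFITM3 block virus entry at membranes and are close copies of each other. IFITM1 and IFITM2 share 32.5% and 22.7% of their exonic bases on the same strand, so how their reads were split is uncertain. As counted, they fell in the HuCCT1 combination by 2.55, 1.30 and 2.29. In OCUG-1 IFITM1 was at 0.556 CPM in vehicle against 297 CPM in HuCCT1, and IFITM2 and IFITM3 fell in the combination by 2.28 and 1.39. The 3 membrane factors that could be tested in OCUG-1 were lower in the combination in both lines. Of all genes 26.7% were lower in this OCUG-1 comparison and 6.57% in that of HuCCT1. The OCUG-1 falls rest on few reads. In the combination libraries IFITM2 had 18 to 39 counts, IFITM3 had 4 to 15 and BST2 had 3 to 10.

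RSAD2 encodes viperin, an enzyme that makes a chain-terminating nucleotide, and CMPK2, its neighbour on chromosome 2, a mitochondrial nucleotide kinase. RSAD2 (chr2:6865806-6898239) in HuCCT1 was at 40.4, 30.9 and 29.3 CPM in the 3 vehicle libraries, 40.1, 38.5 and 45.4 at 1.25 µM, 10.1, 10.6 and 5.62 at 10 µM and 3.28, 2.14 and 2.63 in the combination. The order of the arms was 1.25 µM and vehicle, then 10 µM, then the combination with no overlap, and the change for the combination was -3.93 ± 0.22 (log2, SE; edgeR adjusted p = 1.39e-07). In OCUG-1 it was at 1.88, 0.862 and 1.37 CPM in the 3 vehicle libraries, 0.639, 0.687 and 0.638 at 1.25 µM, 5.08, 7.11 and 3.05 at 10 µM and 6.62, 3.93 and 5.18 in the combination. There 1.25 µM was lowest and the 10 µM and combination libraries were above all others, a rise of 3.09 ± 0.36 over 1.25 µM (edgeR adjusted p = 8.22e-07) and of 2.01 ± 0.32 over vehicle. The interaction, 6.91 ± 0.44, was the largest of the 46 genes, and rests in part on 9 to 15 counts per OCUG-1 library at 1.25 µM. CMPK2 in HuCCT1 read 34.7, 23.3 and 20.0 CPM in the 3 vehicle libraries, 30.1, 34.1 and 34.8 at 1.25 µM, 16.5, 13.3 and 4.77 at 10 µM and 2.60, 2.51 and 3.17 in the combination. Its 10 µM libraries were spread, with replicate 3 far below the others, and the combination libraries were the lowest (-3.58 ± 0.37, edgeR adjusted p = 6.53e-05). The fall at 10 µM, -1.16 ± 0.32, lost its call with no filter on low counts, without replicate 1 of the vehicle arm and when the fit held only the vehicle and 10 µM libraries. OCUG-1 CMPK2 read 2.30, 2.07 and 2.05 CPM in the 3 vehicle libraries, 1.73, 2.75 and 1.98 at 1.25 µM, 4.46, 5.19 and 3.93 at 10 µM and 5.58, 3.54 and 4.53 in the combination. It rose in the same arms as RSAD2, by 1.17 ± 0.23 in the combination over 1.25 µM.

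SAMD9 and SAMD9L are antiviral proteins that limit translation and growth and sit side by side on chromosome 7. SAMD9 in HuCCT1 was at 392, 318 and 369.5 CPM in the 3 vehicle libraries, 241, 270.2 and 354 at 1.25 µM, 255, 222 and 119 at 10 µM and 133, 133 and 126 in the combination. The 1.25 µM libraries overlapped those of vehicle and of 10 µM, and the combination libraries were below all of the 1.25 µM libraries (-1.14 ± 0.21, log2, SE; edgeR adjusted p = 0.00384). OCUG-1 SAMD9 was at 17.7, 28.9 and 24.6 CPM in the 3 vehicle libraries, 23.1, 22.6 and 25.9 at 1.25 µM, 36.2, 37.3 and 36.4 at 10 µM and 39.0, 34.1 and 31.3 in the combination. Its 10 µM and combination libraries were all above those of vehicle and 1.25 µM, with changes of 0.70 ± 0.14 and 0.66 ± 0.14. SAMD9L fell in the HuCCT1 combination by 1.43, and in OCUG-1 it fell at 1.25 µM and at 10 µM by 0.57 and 0.61.

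PARP9, PARP12 and PARP14 belong to the ADP-ribosyltransferase family, DTX3L is the ubiquitin ligase partner of PARP9, and HELZ2 is a helicase and transcriptional coactivator. PARP14 in HuCCT1 was at 373, 322 and 374 CPM in the 3 vehicle libraries, 312, 324 and 402 at 1.25 µM, 259, 214 and 194 at 10 µM and 158, 145 and 155 in the combination. Vehicle and 1.25 µM overlapped, 10 µM was lower and the combination lowest without overlap (-1.18 ± 0.12, log2, SE; edgeR adjusted p = 1.56e-05). In OCUG-1 PARP14 was at 85.2, 84.7 and 81.4 CPM in the 3 vehicle libraries, 87.6, 87.2 and 90.4 at 1.25 µM, 76.7, 86.8 and 76.2 at 10 µM and 77.5, 63.8 and 71.5 in the combination. The combination libraries lay below all those of vehicle and 1.25 µM, but no comparison within OCUG-1 called PARP14. All 5 genes of this group fell in HuCCT1, by 1.00 (PARP12) to 1.77 (PARP9) in the combination. In OCUG-1 PARP12 rose from a mean of 71.4 to 121 CPM and its combination mean exceeded the 77.5 CPM of the HuCCT1 combination. HELZ2 and DTX3L also rose there, by 0.51 and 0.38, and PARP9, whose gene lies next to that of DTX3L, fell by 0.35.

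CXCL10 and CXCL11 are chemokines that draw T cells through the receptor CXCR3. CXCL10 in HuCCT1 was at 6.93, 6.15 and 4.09 CPM in the 3 vehicle libraries, 10.3, 13.2 and 11.6 at 1.25 µM, 3.86, 4.89 and 2.73 at 10 µM and 1.39, 0.863 and 0.864 in the combination. The 1.25 µM libraries were the highest and the combination libraries the lowest, with no overlap with any other arm, and the change was -3.48 ± 0.27 (log2, SE; edgeR adjusted p = 7.98e-07). In OCUG-1 it had 0.294, 0.575 and 0.741 CPM in the 3 vehicle libraries, 0.319, 0.137 and 0.142 at 1.25 µM, 0.365, 0.409 and 0.310 at 10 µM and 0.155, 0.0427 and 0.0996 in the combination, with 1 to 3 counts per library in the combination, and was not tested. CXCL11 in HuCCT1 had means of 3.56, 5.63, 5.44 and 1.00 CPM in vehicle, 1.25 µM, 10 µM and combination. LGALS3BP is a secreted glycoprotein that binds galectins. HuCCT1 libraries had 1358, 1312 and 1309 CPM in the 3 vehicle libraries, 1486, 1609 and 1694 at 1.25 µM, 974, 1019 and 1018 at 10 µM and 982, 932 and 989.7 in the combination. The 10 µM and combination libraries overlapped and lay below all others (-0.40 ± 0.09 and -0.72 ± 0.09). OCUG-1 libraries had 979, 958 and 969 CPM in the 3 vehicle libraries, 1219.9, 1311 and 1309 at 1.25 µM, 574, 534 and 608 at 10 µM and 659, 666 and 588 in the combination. The gene was higher there at 1.25 µM than in vehicle (0.37 ± 0.10, edgeR adjusted p = 0.0202; not called in HuCCT1, 0.27 ± 0.09) and lower at 10 µM and in the combination (-0.69 ± 0.10 and -0.89 ± 0.10), and its fall at 10 µM was larger than in HuCCT1 by the interaction test (-0.36 ± 0.13, edgeR adjusted p = 0.023). That interaction lost its call in 6 alternatives (-0.40 to -0.27 over all of them), among them library size alone and leaving out replicate 2 of either 10 µM arm.

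IFI6 and IFI27 are small hydrophobic proteins found in mitochondrial and other membranes. IFI6 (chr1:27666061-27672218) in HuCCT1 was at 567, 436 and 438 CPM in the 3 vehicle libraries, 457, 422 and 589.6 at 1.25 µM, 127, 112 and 58.8 at 10 µM and 64.6, 47.7 and 58.6 in the combination. The 10 µM and combination libraries were far below the rest, with the replicate 3 library at 10 µM inside the combination range, and the changes were -2.27 ± 0.24 (log2, SE; edgeR adjusted p = 2.04e-05) and -3.10 ± 0.25 (edgeR adjusted p = 3.26e-06). OCUG-1 had 13.9, 14.8 and 11.9 CPM in the 3 vehicle libraries, 13.3, 24.8 and 29.3 at 1.25 µM, 20.2, 19.9 and 27.2 at 10 µM and 22.5, 14.7 and 14.9 in the combination. IFI6 rose there at 10 µM (0.79 ± 0.24, edgeR adjusted p = 0.00924) and was not called in the combination. IFI27 in HuCCT1 was at 1654, 1700.3 and 1126 CPM in the 3 vehicle libraries, 1583, 1511 and 1449.9 at 1.25 µM, 549, 556 and 336 at 10 µM and 459, 321 and 419 in the combination. Its 10 µM and combination libraries overlapped each other and no other arm (-1.64 ± 0.19 and -1.92 ± 0.20). OCUG-1 IFI27 was at 262, 261 and 269 CPM in the 3 vehicle libraries, 491, 438 and 395 at 1.25 µM, 198, 198 and 217 at 10 µM and 207, 237 and 186 in the combination. It rose at 1.25 µM (0.71 ± 0.11) and fell in the combination against 1.25 µM (-0.95 ± 0.11), while the combination was not called against vehicle (-0.24 ± 0.11, edgeR adjusted p = 0.0624).

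IFI44 and IFI44L are neighbouring interferon-induced genes on chromosome 1. IFI44L in HuCCT1 was at 438, 327 and 306 CPM in the 3 vehicle libraries, 285, 297 and 299 at 1.25 µM, 122, 100.3 and 57.9 at 10 µM and 40.1, 25.6 and 40.8 in the combination. Libraries of the arms fell in order, with the combination below every 10 µM library (-3.05 ± 0.25, log2, SE; edgeR adjusted p = 5.53e-06). OCUG-1 IFI44L was at 6.30, 6.72 and 8.43 CPM in the 3 vehicle libraries, 3.39, 4.30 and 4.04 at 1.25 µM, 0.950, 0.899 and 1.50 at 10 µM and 0.621, 0.811 and 0.398 in the combination. No library of an arm overlapped the vehicle arm, and the gene fell at 1.25 µM (-0.90 ± 0.23), at 10 µM (-2.63 ± 0.26) and in the combination against vehicle (-3.44 ± 0.28, edgeR adjusted p = 1.02e-08). It was the strongest case of a gene that fell in both lines, and the interaction for the combination was not called (0.39 ± 0.50). In the OCUG-1 combination IFI44L had 8 to 19 counts per library. IFI44 fell in the HuCCT1 combination by 2.26 and was not called in any OCUG-1 arm.

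The other 7 genes of this last group fell in the HuCCT1 combination by 1.59 to 2.30 on the log2 scale: the apoptosis regulator XAF1, EPSTI1, the ubiquitin ligase TRIM22, SP110, IFI35, the receptor-transporting protein RTP4 and the phospholipid scramblase PLSCR1. In OCUG-1 TRIM22, RTP4 and PLSCR1 fell by 1.19, 2.17 and 0.54, and IFI35 and SP110 were not called in any arm. XAF1 had no counts in the 3 OCUG-1 combination libraries, which allows up to 0.147 to 0.177 CPM per library (3 counts of the library total), for counting error only. The mean of EPSTI1 was at most 0.309 CPM in any OCUG-1 arm. XAF1 shares 38.3% of its exonic bases with a gene on the other strand and SP110 20.9%, and IFITM3, described above, 21.3%. With no strand setting stated, reads of those partners cannot be told apart from theirs.

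The changes were also read by presence of the ISRE core. In the HuCCT1 combination against 1.25 µM the median log2 change was -1.81 for the 24 genes with the core and -1.79 for the 15 without. In the OCUG-1 combination the medians were -0.26 for 21 tested genes with the core and 0.29 for 13 without. These medians are descriptions and were not tested. Members that are neighbours share their surroundings. The 46 genes include 11 clusters of genes within 100 kb of each other, which hold 26 genes, such as IFIT2, IFIT3, IFIT1 and IFIT5 on chromosome 10 and OAS1, OAS3 and OAS2 on chromosome 12.

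Genes upstream of this response were read from a list of 33 interferon ligands, receptors, kinases, transcription factors, sensors and inhibitors. In the HuCCT1 combination against 1.25 µM, 13 of the 30 tested fell (43.3%) and 1 rose, with a median log2 change of -0.43, where 11.6% of all genes were called and 6.57% were lower. Of the transcription factors, IRF7, which amplifies interferon production, went from 221 ± 25.7 CPM (SD, n = 3) to 57.3 ± 4.19 CPM (-1.95 ± 0.16, log2, SE; edgeR adjusted p = 1.12e-06). IRF9 fell by 0.95 ± 0.17, IRF1 by 0.61 ± 0.12 and STAT2 by 0.57 ± 0.13. IRF3 was not called. The sensors RIGI and DHX58 fell by 1.67 and 1.65, TLR3 by 0.77 and the kinase IKBKE by 0.95. None of the 6 receptor genes was called in this comparison, and JAK2 was the gene that rose (0.39 ± 0.12).

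At 10 µM against vehicle 9 of the 30 fell, IRF7 by 0.92 ± 0.15 among them, and 5 rose (16.7%), led by JAK2 (1.20 ± 0.12), where 11.2% of all genes were lower and 13% were higher, so the share that rose is near that of all genes. Type III interferon transcripts were present at trace level in HuCCT1. IFNL1 had a mean of 1.11 CPM at 1.25 µM and 0.107 CPM in the combination (-3.37 ± 0.62, log2, SE; edgeR adjusted p = 0.00274). IFNL2 and IFNL3, near-identical copies whose reads may be split, changed by -3.16 ± 0.56 and -2.82 ± 0.49. These rest on few reads, 13 to 31 counts of IFNL1 per library at 1.25 µM and 1 to 5 in the combination. IFNE, a type I interferon of epithelia, fell by 1.46 ± 0.36 (edgeR adjusted p = 0.0227). IFNB1, IFNK and IFNG had too few counts to be tested. In OCUG-1 vehicle cells IFNL1 and IFNL3 had at most 1 count per library and IFNL2 none.

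In OCUG-1 the same list gave 4 higher and 14 lower of 26 tested genes for the combination against 1.25 µM, 69.2% called, where 58.1% of all genes were called. By direction 53.8% of the list were lower and 15.4% higher, against 26.7% and 31.4% of all genes. STAT2 fell by 0.54 ± 0.10 (log2, SE), while IRF7 and IRF1 rose by 0.62 ± 0.17 and 0.44 ± 0.15. The DNA sensor CGAS rose from 2.61 to 8.85 CPM (1.86 ± 0.21, edgeR adjusted p = 5.26e-07), and in HuCCT1 it was not called (-0.15 ± 0.13). In vehicle cells 17 of 29 tested genes of the list were lower in OCUG-1 (58.6%) and 8 were higher (27.6%), where 32.7% of all genes were lower and 35.6% were higher. All 4 tested ligands are among the 17. Of these, IFNL1, IFNL2 and IFNL3 had at most 1 count per OCUG-1 vehicle library. They entered this fit through HuCCT1, so they could only be called lower. IRF7 and CGAS were lower in OCUG-1 than in HuCCT1 by 4.46 and 3.29. Among receptor genes, picked here after their values were seen, IFNAR2 and IFNGR1 were higher in OCUG-1, by 1.67 and 2.10, and IFNAR1 and IFNLR1 were not called.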

How the data were processed

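RNA-seq was measured in 24 libraries, 3 per group. The deposited values are raw read counts per gene, 1 table per line; the authors extracted total RNA with TRIzol and sequenced TruSeq mRNA libraries, per the labels' protocols. The submitters' processing notes name GRCh38, bcl2fastq, fastp 1.3.2, HISAT2 2.2.2, featureCounts of Subread 2.1.1, MultiQC 1.33, R 4.4.1 and DESeq2 1.42.1. The annotation release, the strand setting and the handling of multi-mapped reads were not given in the sources used here. Per the labels, 4 OCUG-1 libraries had further runs that were treated as technical replicates. No per-sample column was left unmapped (0 columns).

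Counts were tested with edgeR 4.0.16 (R 4.3.3, limma 3.58.1): TMM scaling, filterByExpr at its minimum of 10 counts, robust quasi-likelihood fits and 2-sided Benjamini-Hochberg adjustment over all genes tested, called at an adjusted p under 0.05. Each line was fitted over its 12 libraries, and the difference of the lines and the interactions over all 24. The CPM shown are scaled with TMM factors over the 24 libraries, so ratios of CPM means can differ slightly from the fold changes fitted within a line. The pipeline was tested on simulated data. The replicates are called independent by the labels; depth was 14388855 to 30693736 counts per library.

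The alternatives were RLE size factors, library size alone, no filter, DESeq2 1.42.0, a replicate block, other sets of libraries in the fit and each replicate left out. Values in every library are given for the gene of each role with the highest mean CPM over the 24 libraries, for every gene called with an absolute log2 change of at least 3 within a line, and for a panel of ISG15, IFI6, MX1, RSAD2, IFIT1, OAS1, USP18 and CXCL10. The 46 genes, the pathway list, the marker lists and this rule were chosen with earlier results of these data known. A single gene of the pathway list is not reported here by name. Fibroblast markers, the last of the marker lists, summed to 40.2 to 64.2 CPM in HuCCT1 and 48.7 to 196 CPM in OCUG-1. Gene positions and exonic lengths are from GENCODE 29 and promoters from RefSeq on GRCh38.p14, whose gene starts may differ.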

Additional observations from a re-analysis of the deposited data

Results flagged for a closer look

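These results are listed because the change of a gene under the same treatment differed between the lines by a direct test, the interaction in edgeR's quasi-likelihood fit of all 24 libraries (adjusted p under 0.05 over all genes). Each value is the OCUG-1 log2 change minus the HuCCT1 log2 change, both within this fit, so a positive value means a higher change in OCUG-1. The scaling of this fit is not that of each line's own fit. The values therefore differ slightly from differences of the changes given above. At 1.25 µM sorafenib against vehicle 4 of the 46 genes differed in this way, a share below the 9.65% of all genes called, and 1 of them, CXCL10, had too few OCUG-1 reads for a test within that line. Of the 4, IFI27 differed by 0.72, a call lost in 9 of 18 alternatives, all of them with 1 library left out (0.64 to 0.90 over all alternatives).

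At 10 µM sorafenib against vehicle 35 of the 46 genes differed, where 43.8% of all genes were called and 20.7% were higher. RSAD2 (3.83), IFI6 (2.99), MX1 (2.65), CMPK2 (2.24) and MX2 (2.13) had the highest values among the genes described in every library. OAS1 differed by 1.83, ISG15 by 1.77, SAMD9 by 1.48, USP18 by 1.47 and IFI27 by 1.26. Smaller values were those of OAS3 (0.78), IFIT1 (0.67) and PARP14 (0.61), and LGALS3BP was the gene of this set with the lower change in OCUG-1 (-0.36). The difference of IFIT1 lost its call without replicate 1 or 3 of the OCUG-1 vehicle arm, OCUG-1 10 µM replicate 1, HuCCT1 vehicle replicate 1 or HuCCT1 10 µM replicate 3 (0.43 to 0.88 over all alternatives), and that of LGALS3BP in 6 alternatives.

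For the combination against 1.25 µM sorafenib 37 of the 46 genes differed, where 38.8% of all genes were called and 18.6% were higher. Among the 37 are CXCL10 and CXCL11, which had too few OCUG-1 reads for a test within that line and entered the fit through HuCCT1. RSAD2 differed by 6.91, CMPK2 by 4.62, MX2 by 3.82, MX1 by 3.58 and OAS1 by 3.10. The value of RSAD2 rests in part on 9 to 15 counts per OCUG-1 library at 1.25 µM. USP18 (2.80), IFI6 (2.73), ISG15 (2.56), OAS3 (1.96), SAMD9 (1.69) and IFIT1 (1.52) followed. PARP14 differed by 0.86 and IFI27 by 0.85, while BST2, which is near 0 CPM in OCUG-1, differed by -1.10, a call lost in 12 of 18 alternatives (-1.35 to -0.77 over all of them), with RLE size factors, library size alone and most single libraries left out.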

How the results depend on the processing

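The counts of called genes at 10 µM, in the combination and between vehicle cells were within 1.5 times of the reported count in every alternative run, and no gene reversed. The counts at 1.25 µM against vehicle were not stable. In HuCCT1 the 7 became 13 with no filter on low counts, 11 with the replicate block, 22 with replicate 3 of the vehicle, 1.25 µM and 10 µM arms removed, and 3 to 11 with 1 library left out. In OCUG-1 the 6 ranged from 2 to 6 with 1 library left out. The 4 interactions at 1.25 µM became 8 with no filter, 7 with DESeq2, 8 without those replicates and 2 to 8 with 1 library left out. The cause was not tested. Replicate numbers are not stated to pair the libraries. Of 12 libraries in each line, 5 (HuCCT1) and 4 (OCUG-1) were most alike to libraries with their own number. With group means removed, the median correlation was 0.0945 with the same number and -0.0411 with other numbers in HuCCT1. In OCUG-1 these were -0.0675 and 0.0205. Such values cannot decide whether some libraries were paired. The replicate block changed no other count by more than 1.5 times (43, 46 and 45 in the other HuCCT1 comparisons). With 1 library left out the HuCCT1 counts were 40 to 42 at 10 µM, 45 for the combination against 1.25 µM and 44 to 45 against vehicle. For the OCUG-1 combination against 1.25 µM, 8 genes were higher and 16 lower without replicate 1 of the combination. The depth leaves XAF1, IFITM1, CXCL10, CXCL11 and EPSTI1 untested in OCUG-1.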
